A study of Mus musculus with 13 samples.

Results

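Cytochrome P450 genes outside the small set that is usually read as detoxification and sterol markers were followed in sorted epithelial cells of the mouse jejunum under 5 feeding patterns. Members were chosen by name and by a minimum of counts: every gene symbol starting with Cyp and a digit was taken, except Cyp1a1, Cyp1b1, Cyp2b10, Cyp3a11, Cyp3a13, Cyp3a25, Cyp4a10, Cyp4a14, Cyp4a31, Cyp24a1 and Cyp51, if its counts over the 13 libraries summed to at least 10. Of 21868 symbols in the table, 100 start with Cyp and a digit, 11 of them are these exceptions, 35 fell below the minimum and 54 were members. Just inside the minimum were Cyp3a44 with 10 counts and Cyp4f18 with 12, and just outside it were Cyp2j12, Cyp4f37 and Cyp2f2 with 6 counts each; of the genes below it, 19 had no count.

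Breakfast skipping combined with control (BSF_C, 3 libraries) is described no further by the labels. Breakfast skipping (BSF, 2 libraries) meant food between ZT16 and ZT24, where ZT is the time after lights on, lunch skipping (LSF, 3 libraries) food between ZT12 and ZT16 and between ZT20 and ZT24, and dinner skipping (DSF, 2 libraries) food between ZT12 and ZT20, each kept up for 2 weeks. The control (con) had 3 libraries. The sources used here leave out the feeding hours of BSF_C and con and the hour of sampling. BSF_C, BSF, LSF and DSF are together called the feeding groups. All groups were sorted as EpCAM-positive cells without CD45, CD11b, CD3 and B220, from mice that the design text places in a shared environment and cage, and their polyadenylated RNA was sequenced.

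P450 enzymes are heme proteins that put an oxygen atom into a substrate, with electrons handed over by a reductase of the endoplasmic reticulum or by ferredoxin in mitochondria. Some families act on drugs and plant compounds, others on fatty acids, arachidonic acid, cholesterol, bile acids, vitamins and steroid hormones. In the small intestine they are made mostly by enterocytes of the villus, where food components and drugs meet them first.

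Depth, marker genes and the place of con bear on everything that follows. Library totals ran from 7127769 to 8589351 counts in the 10 BSF_C, BSF, LSF and DSF libraries and from 4851239 to 5202146 in con. On the first principal component the con libraries lay at 88.9 to 93.9 and the others at -32.9 to -22.1; no batch is named in the labels, and one that held only the con libraries and the con condition itself cannot be told apart. The 7 epithelial markers summed to between 5310 and 6890 CPM (counts scaled to a common library size with TMM factors) in every library. This even sum hides opposite differences between its members. Cdh1 averaged 2020 CPM in con and 718 to 851 in the feeding groups. Each of the others averaged less in con than in every feeding group, as Epcam did, at 193 CPM in con and 322 to 375 in the feeding groups. The 8 villus enterocyte markers, all with counts in every library, summed to 24700 to 26700 CPM in BSF_C, 25400 in both BSF libraries, 29500 to 30200 in LSF, 19000 to 19400 in DSF and 3280 to 3760 in con. Most of each sum came from Apoa4 and Apoa1, which averaged 14000 and 6740 CPM in BSF and 9380 and 5390 in DSF. Slc5a1 alone averaged more in DSF (856 CPM) than in BSF (740 CPM). The 8 crypt and stem cell markers summed to 2360 to 2410 CPM in BSF_C, 2420 to 2530 in BSF, 1800 to 1820 in LSF, 2320 to 2370 in DSF and 3540 to 3780 in con. Olfm4 supplied most of each sum, averaging 1730 CPM in BSF_C, 1790 in BSF, 1300 in LSF, 1720 in DSF and 2810 in con. Ascl2 (5.49 CPM in con, 18.5 to 23.9 in the feeding groups) and Sox9 averaged less in con than in every feeding group. Mki67 in con lay within the range of the feeding groups, and the remaining markers averaged more in con. The 12 skin keratinocyte markers summed to at most 6.2 CPM in any BSF_C, BSF, LSF or DSF library, against 536 to 643 CPM in con. In bulk RNA, fewer cells of a type and less RNA per cell cannot be told apart. The part of these markers in the P450 results was not tested.

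Few members carried most of the P450 signal. On a scale of CPM per kilobase of exon, which allows levels of different genes to be compared, Cyp4f14, Cyp2d26, Cyp4v3 and Cyp2c65 made up 63.8% of the summed level of all members, and the 10 highest members 88.9%. Counts in every library were seen for 30 members, and 14 had none in con. The summed level of all 54 was 702 ± 6.93 CPM per kilobase in BSF_C, 690.4 ± 12.7 in BSF, 899 ± 12.6 in LSF, 656 ± 3.94 in DSF and 240.3 ± 3.22 in con (SD, n = 3, 2, 3, 2 and 3). All 3 LSF libraries lay above every other library in this sum, and all 3 con libraries below. The fatty acid hydroxylases supplied 402 ± 5.94 CPM per kilobase of it in BSF_C, 400.3 ± 4.77 in BSF, 426 ± 4.37 in LSF, 365 ± 0.443 in DSF and 138 ± 2.06 in con.

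**Figure D1:**
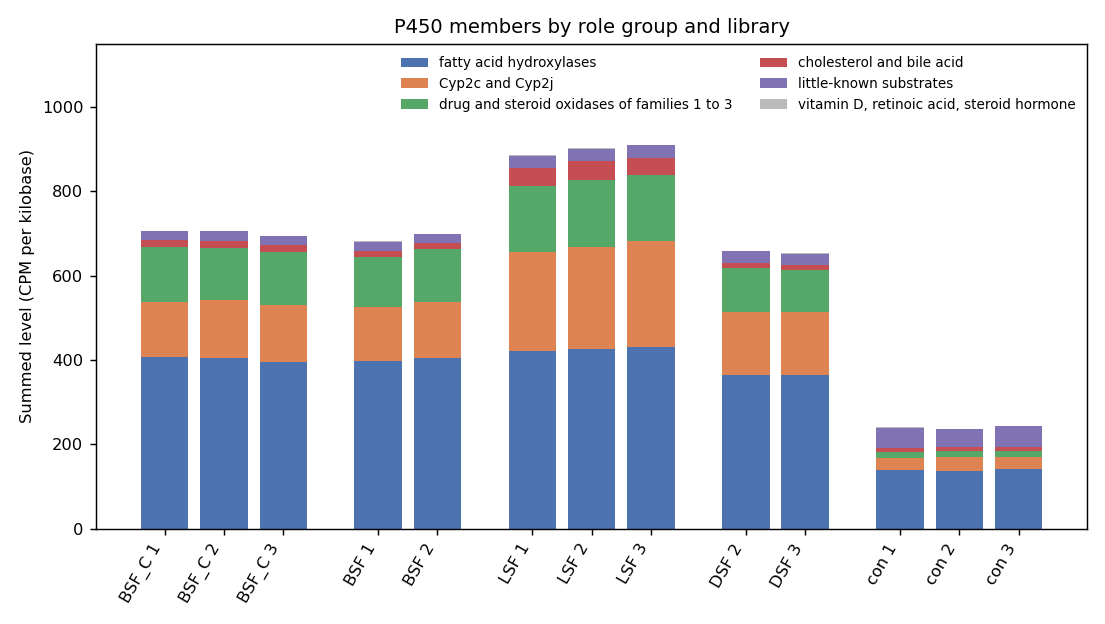
Summed level of the 54 members in each of the 13 libraries (vertical axis, CPM per kilobase of exon), stacked by role group. The 3 LSF columns are the tallest, the 3 con columns the shortest, and fatty acid hydroxylases form the largest block in each column.

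Of the 54 members, 35 passed the filter on low counts and were tested with edgeR (quasi-likelihood F, p-values adjusted after Benjamini and Hochberg over all 14300 genes tested, threshold 0.05). Of these 35, 18 reached the filter's level of about 1.3 CPM in every group and 17 in fewer, so some entered the test only through the group where they were high. In LSF against DSF, 15 members were higher (8.97% of all genes tested were) and 3 lower (6.91% of all genes), with a median log2 fold change of 0.53 against 0.0 for all genes. In BSF_C against LSF, 3 members were higher (15.6% of all genes) and 18 lower (17.1% of all genes), with a median of -0.38 against 0.01; both comparisons rest on the same LSF libraries. In BSF against DSF, 5 were higher (5.77% of all genes) and 4 lower (6.26% of all genes). The higher count was 3 without BSF library 2 or DSF library S3, and the lower count 2 without BSF library 1 or DSF library S3; the 3 lower in LSF against DSF became 1 without DSF library S3. All 3 LSF libraries lay above all 10 other libraries in 14 members, where 8.06% of all genes tested had that pattern, and 10 of the 14 reached the filter's level in every group. Both DSF libraries lay below all others in 1 member, Cyp2j11, against 1.71% of all genes.

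The Cyp2c and Cyp2j genes, which oxidise arachidonic acid and other polyunsaturated fatty acids as well as drugs, had their highest summed level in LSF and their lowest in con, although single members had other orders. The 15 summed to 134 ± 4.08 CPM per kilobase in BSF_C, 131 ± 4.03 in BSF, 243 ± 9.18 in LSF, 148 ± 1.17 in DSF and 30.6 ± 2.23 in con. Of 14 tested, 10 were higher (8.97% of all genes) and none lower in LSF than in DSF, and 10 were lower (17.1% of all genes) and none higher in BSF_C than in LSF. In each comparison 4 passed the test in neither direction. Cyp2c38, Cyp2j8, Cyp2c67 and Cyp2c23 reached the filter's level in LSF alone and entered the test through it. Of these, Cyp2c38, Cyp2j8 and Cyp2c67 were called in LSF against DSF. Cyp2c38, Cyp2j8 and Cyp2c23 were called in BSF_C against LSF. Their calls cannot count as separate support for a high LSF level. Most Cyp2c members lie in a run on chromosome 19, with Cyp2c55, Cyp2c65, Cyp2c66, Cyp2c29, Cyp2c38, Cyp2c67, Cyp2c68 and Cyp2c70 between 39007019 and 40187333 and Cyp2c23 farther along (GRCm38).

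Cyp2c29, an epoxygenase of arachidonic acid that is abundant in mouse liver (chromosome 19, 39269405 to 39330713), had 3.32, 2.11 and 2.82 CPM in the BSF_C libraries, 2.42 and 3.79 in BSF, 28.7, 28.6 and 29.1 in LSF, 2.86 and 3.299 in DSF and 0, 0 and 0.2303 in con. The LSF libraries stood well above all others, while BSF_C, BSF and DSF lay in one narrow range and con held a single count. The log2 fold change was 3.22 ± 0.21 (SE; adjusted p = 1.11e-18) in LSF against DSF and -3.39 ± 0.18 (SE; adjusted p = 1.58e-22) in BSF_C against LSF, both from edgeR's quasi-likelihood fit. Its neighbour Cyp2c38 (chromosome 19, 39389556 to 39463075) had 0.123, 0.117 and 0.367 CPM in BSF_C, 0.135 and 0.334 in BSF, 3.14, 3.597 and 5.18 in LSF, 0.2602 and 0 in DSF and 0, 0.208 and 0 in con. Here too the LSF libraries did not overlap the rest, which were all near the limit of detection. With 93 counts in LSF and 2 in DSF, the depth-scaled ratio was 30.1, with an exact 95% counting interval of 8.1 to 252. Against LSF, BSF_C had a log2 change of -4.18 ± 0.51 (SE; adjusted p = 2.41e-09).

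Cyp2c55, which makes hydroxylated arachidonic acid and is found in mouse gut (chromosome 19, 39007019 to 39042693), followed a different order. It had 21.4, 23.1 and 22.5 CPM in BSF_C, 21.5 and 24.2 in BSF, 86.1, 92.9 and 92.8 in LSF, 65.7 and 68.2 in DSF and 0.206, 1.87 and 1.15 in con. LSF and DSF were both high, BSF_C and BSF overlapped at an intermediate level, and con was near the limit of detection. By edgeR's fit, the log2 fold change was -1.54 ± 0.11 (SE; adjusted p = 6.11e-16) in BSF against DSF, -2.02 ± 0.09 (SE; adjusted p = 1.37e-25) in BSF_C against LSF and 0.44 ± 0.09 (SE; adjusted p = 0.000174) in LSF against DSF. A gene on the other strand overlaps it, and without strand their reads cannot be told apart. Cyp2c65 and Cyp2c66 lie next to it. They share windows with each other, 11.4% of the 75-base windows of Cyp2c65 and 10.8% of those of Cyp2c66. Their counts are therefore uncertain, and these shares set no bound on the error. Cyp2c65 had 115, 126 and 116 CPM in BSF_C, 115 and 116 in BSF, 152, 155 and 166 in LSF, 116 and 113 in DSF and 19, 25.8 and 24.6 in con. Apart from LSF above and con below, its groups overlapped, with a log2 change of 0.46 ± 0.07 (SE; adjusted p = 1.01e-06) in LSF against DSF and 0.01 in BSF against DSF (adjusted p = 0.977). Cyp2c66 had 39.8, 41.5 and 42.97 CPM in BSF_C, 34.3 and 42.2 in BSF, 78.5, 79.5 and 88.1 in LSF, 50.4 and 51.2 in DSF and 2.89, 3.54 and 3.46 in con. LSF was highest and con lowest with no overlap, and DSF lay above BSF_C and BSF. Its log2 fold change was 0.69 ± 0.09 (SE; adjusted p = 1.69e-08) in LSF against DSF, -0.98 ± 0.08 (SE; adjusted p = 5.02e-15) in BSF_C against LSF and -0.40 ± 0.10 (SE; adjusted p = 0.00638) in BSF against DSF, a call that was lost without BSF library 1 (-0.27, adjusted p = 0.218) and without DSF library S3 (adjusted p = 0.0614).

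**Figure D2:**
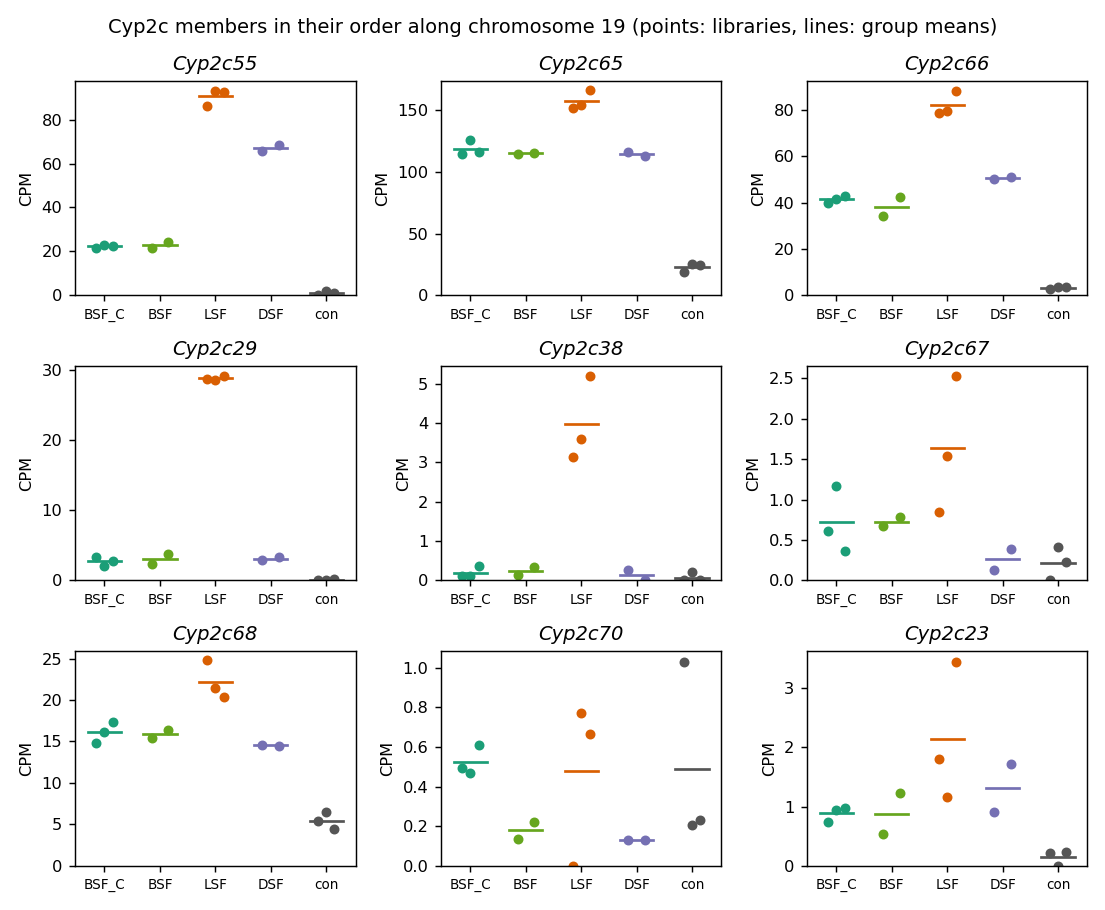
The 9 Cyp2c members in the order in which they lie on chromosome 19 (vertical axes, TMM-scaled CPM, each from 0; points, libraries; lines, group means). Cyp2c29 and Cyp2c38 have a high LSF group alone, at 28.8 and 3.97 CPM, while Cyp2c55 is high in LSF and DSF, at 90.6 and 67.0 CPM.

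The RefSeq promoters of 3 of these neighbours are shown because LSF alone stood high in Cyp2c29 and Cyp2c38, while Cyp2c55 was high in DSF too. Each runs from 250 bases before to 50 bases after the start on its own strand (GRCm38.p6), and capitals mark a TATAAA match. Cyp2c29 is taken from chr19:39286835-39287134 on the plus strand, where the RefSeq start lies inside the longer GENCODE gene. Cyp2c38 is from chr19:39463026-39463325 on the minus strand, and Cyp2c55 from chr19:39006769-39007068 on the plus strand.
Cyp2c29: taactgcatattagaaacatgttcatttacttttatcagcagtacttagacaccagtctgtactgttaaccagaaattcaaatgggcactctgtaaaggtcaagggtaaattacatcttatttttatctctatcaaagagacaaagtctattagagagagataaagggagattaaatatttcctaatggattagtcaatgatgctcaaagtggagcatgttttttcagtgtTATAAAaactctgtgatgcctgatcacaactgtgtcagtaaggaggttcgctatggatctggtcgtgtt
Cyp2c38: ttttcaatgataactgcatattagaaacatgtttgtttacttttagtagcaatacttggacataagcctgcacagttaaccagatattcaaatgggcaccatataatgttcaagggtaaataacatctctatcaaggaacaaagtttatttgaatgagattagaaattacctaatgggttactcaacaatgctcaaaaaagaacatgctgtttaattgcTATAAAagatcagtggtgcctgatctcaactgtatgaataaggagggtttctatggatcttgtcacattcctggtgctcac
Cyp2c55: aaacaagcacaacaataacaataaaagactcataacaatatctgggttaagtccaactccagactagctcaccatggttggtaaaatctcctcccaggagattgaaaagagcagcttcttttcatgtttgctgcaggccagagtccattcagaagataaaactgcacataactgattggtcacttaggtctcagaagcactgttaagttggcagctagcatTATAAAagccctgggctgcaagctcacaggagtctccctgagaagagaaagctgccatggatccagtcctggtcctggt
The match starts 19 bases before the annotated start in Cyp2c29, 31 before it in Cyp2c38 and 29 before it in Cyp2c55. In a global alignment, 76.0% of the 300 bases of the Cyp2c29 promoter were identical in Cyp2c38, 59.0% of those of Cyp2c29 in Cyp2c55 and 51.3% of those of Cyp2c38 in Cyp2c55. Among the 28 pairs of 8 Cyp2c promoters, identity ran from 47.7% to 85.3%, the highest being that of Cyp2c65 and Cyp2c66. Promoters were found for 44 of the 54 members. TATAAA on the strand of the gene was in 24% of their 50 promoters and in 8.32% of all 32851 promoters. Among the 14 members with LSF above all other libraries, 13 had a promoter in the table and 5 of them held it (38.5%). The nuclear receptor site AGGTCA, on either strand, was in 20% of member promoters, in 7.69% of those 13 and in 16.3% of all. The D-box TTANGTAA, bound by the clock-output factors Dbp, Tef and Hlf, was in 2.0% of member promoters, in 7.69% of those 13 and in 2.32% of all. The xenobiotic response core GCGTG was in 24% of member promoters, 23.1% of those 13 and 32.4% of all, and the E-box CACGTG in 4.0%, 15.4% and 7.15%. These matches describe the letters in the window and are not sites shown to be bound.

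Among the Cyp2j genes on chromosome 4, Cyp2j6 was the most abundant (chromosome 4, 96516138 to 96553661). It had 96.2, 90.4 and 96.2 CPM in BSF_C, 97.3 and 91.04 in BSF, 147, 158 and 156 in LSF, 59.97 and 62.4 in DSF and 43.8, 39.3 and 33.9 in con. LSF lay above BSF_C and BSF, these above DSF, and DSF above con, with no overlap at any of these steps. The log2 fold change was 1.33 ± 0.08 (SE; adjusted p = 1.76e-20) in LSF against DSF, -0.71 ± 0.06 (SE; adjusted p = 1.81e-13) in BSF_C against LSF and 0.62 ± 0.09 (SE; adjusted p = 1.99e-07) in BSF against DSF. Cyp2j5, which is abundant in kidney and liver, held 11 to 36 counts in each feeding group and none in con. It was at least 6.76-fold higher in BSF_C, 6.26-fold in BSF, 4.35-fold in LSF and 3.36-fold in DSF than in con, reckoned against a floor of 3 counts over the con group. The call in DSF was lost without DSF library S3 (adjusted p = 0.0632). The 8 kidney tubule markers summed to 58.8 to 130 CPM in BSF_C, 50.9 to 60.3 in BSF, 67.6 to 71.9 in LSF, 73.2 to 84 in DSF and 10.9 to 20.3 in con. Gpx3 supplied most of each sum, averaging 80.6 CPM in BSF_C, 38.2 in BSF, 52.4 in LSF, 58.5 in DSF and 14.5 in con. Every other kidney marker averaged at most 0.138 CPM in con and at least 0.917 CPM in each feeding group. The part of these markers in the Cyp2j5 differences was not tested. Cyp2j13 went the other way, with 0.368, 0.234 and 0.735 CPM in BSF_C, 0.269 and 0.334 in BSF, 0.483, 0.514 and 0.531 in LSF, 0 and 0.264 in DSF and 1.86, 1.66 and 2.07 in con. It was lower in every group than in con, with log2 fold changes of -2.03 in BSF_C, -2.54 in BSF and -1.83 in LSF (adjusted p at most 0.00224), and a count ratio of 14.2 for con over DSF (interval 3.55 to 123). Cyp2j13 reached the filter's level in con alone and entered the test through it. Its calls cannot count as separate support for a high con level.

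The remaining Cyp2c and Cyp2j members are named after their values were seen. Cyp2c68 had group means of 16.1 CPM in BSF_C, 15.9 in BSF, 22.2 in LSF, 14.5 in DSF and 5.397 in con, and its LSF libraries lay above all others, although 28.5% of its windows are shared, mostly with Cyp2c40. Cyp2j9 (6.003 CPM in LSF) and Cyp2j8 (2.68) also had LSF above all others, with log2 fold changes of 1.02 ± 0.28 and 2.96 ± 0.57 in LSF against DSF. The Cyp2j9 call was lost without LSF library 2 (adjusted p = 0.0594) or DSF library S3 (0.152). Cyp2c67 had 0.845, 1.54 and 2.52 CPM in LSF against 0.1301 and 0.396 in DSF, a call that was lost without DSF library S2 (adjusted p = 0.169), and 36.0% of its windows are shared. Cyp2c23 had 0.737, 0.936 and 0.979 CPM in BSF_C, 0.538 and 1.23 in BSF, 1.81, 1.16 and 3.46 in LSF, 0.911 and 1.72 in DSF and 0.206, 0 and 0.2303 in con, and was higher than con in every group, with count ratios of 6.19 (exact 95% counting interval 1.52 to 54.3) in BSF_C, 6.4 (1.49 to 57.7) in BSF, 14.8 (3.9 to 126) in LSF and 9.17 (2.23 to 80.9) in DSF. Leaving out con library 2 ended its call in BSF_C (adjusted p = 0.0651) and BSF (0.0734), BSF library 2 that in BSF (0.229), and DSF library S3 that in DSF (0.0503). Its lower level in BSF_C than in LSF (-1.25 ± 0.43) was lost without BSF_C library 1 (adjusted p = 0.0742) or LSF library 3 (0.286). Cyp2j11 and the untested Cyp2c70 did not exceed 1.66 CPM in any library.

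Of the 4 members that act on cholesterol and bile acids, Cyp27a1 carried nearly all of the signal. This mitochondrial enzyme hydroxylates the side chain of cholesterol and opens the alternative route of bile acid synthesis (chromosome 1, 74713574 to 74737892). It had 30.2, 31.8 and 31.1 CPM in BSF_C, 26.8 and 29.6 in BSF, 88.7, 95.1 and 87.6 in LSF, 23.6 and 23.5 in DSF and 12.8, 10.4 and 14.7 in con. The LSF libraries were far above every other group, and con was the lowest, again with no overlap. On the log2 scale the change was 1.94 ± 0.10 (SE; adjusted p = 1.52e-22) in LSF against DSF and -1.54 ± 0.08 (SE; adjusted p = 2.5e-22) in BSF_C against LSF. In BSF against DSF it was 0.27 (adjusted p = 0.159). Against con it was 1.30 in BSF_C, 1.17 in BSF, 2.84 in LSF and 0.90 in DSF. Cyp39a1, which hydroxylates an oxysterol made in brain, had group means between 5.91 and 8.27 CPM and passed the test in LSF against con alone (-0.50 ± 0.23 SE, adjusted p = 0.0452), where the libraries overlapped and leaving out con library 1 (adjusted p = 0.139), con library 2 (0.256), LSF library 1 (0.115) or LSF library 2 (0.107) ended the call. Cyp46a1, the cholesterol hydroxylase of neurons, and Cyp7b1, an oxysterol hydroxylase, were too low to test and had no count in con; Cyp46a1 had 30 counts in BSF_C, 13 in BSF, 12 in LSF and 4 in DSF.

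The drug and steroid oxidases of families 1 to 3 comprised 11 members, of which 5 were tested. Cyp2d26, a member of the Cyp2d family, whose human relative clears many drugs, dominated them (chromosome 15, 82790101 to 82794294). It had 212, 201 and 201 CPM in BSF_C, 193 and 204 in BSF, 255, 259.5 and 254 in LSF, 171 and 161 in DSF and 20.6, 23.1 and 22.1 in con. LSF was highest, DSF lowest among the feeding groups and con far below, while BSF_C and BSF overlapped. The log2 fold change was 0.62 ± 0.06 (SE; adjusted p = 8.82e-12) in LSF against DSF, -0.32 ± 0.05 (SE; adjusted p = 3.81e-06) in BSF_C against LSF and 0.26 ± 0.07 (SE; adjusted p = 0.00712) in BSF against DSF. The last of these calls was lost without BSF library 2 (adjusted p = 0.139) or DSF library S3 (0.147). Cyp2d22 had the same order of group means, at 37.9 CPM in BSF_C, 36.5 in BSF, 47.2 in LSF, 30.6 in DSF and 6.36 in con; it is named after its values were seen, and its lower level in BSF_C than in LSF (-0.32 ± 0.09) was lost without BSF_C library 2 (adjusted p = 0.0555).

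Cyp1a2, a liver enzyme that oxidises caffeine and is induced through the aryl hydrocarbon receptor, was low and had a different order (chromosome 9, 57676937 to 57683703). It had 2.09, 1.87 and 1.102 CPM in BSF_C, 2.15 and 1.78 in BSF, 1.21, 1.03 and 0.9302 in LSF, 0 and 0.528 in DSF and 0, 0 and 0 in con. BSF_C and BSF held most of the counts, DSF held 4 and con none. In BSF against DSF the log2 fold change was 2.82 ± 0.70 (SE; adjusted p = 0.00369); without DSF library S2, which had no count, it was 1.86 with an adjusted p of 0.158. Against the floor of 3 counts in con it was at least 7.88-fold higher in BSF_C, 9.1-fold in BSF and 4.94-fold in LSF. Cyp2e1, the ethanol oxidase of liver, was likewise at 0 in con and at least 6.01-fold higher in BSF_C, 5.12-fold in BSF, 2.97-fold in LSF and 3.06-fold in DSF. The 8 hepatocyte markers summed to 7.25 to 10.9 CPM in BSF_C, 7.47 to 8.75 in BSF, 7.19 to 8.37 in LSF, 9.9 to 16.7 in DSF and 2.29 to 3.3 in con. Of the 2 that were tested, 1 was higher in each feeding group than in con (36.6% of all genes in DSF to 39.8% in BSF_C). Apoh averaged 6.69 CPM in BSF_C, 6.79 in BSF, 6.32 in LSF, 8.45 in DSF and 0.869 in con, and Alb was at 0 in BSF, LSF and DSF and at most 0.413 CPM in any library. Tat went the other way, averaging 0.698 CPM in con and 0 to 0.201 in the feeding groups. Ttr averaged 0.927 CPM in con and 1.07 to 1.31 in the feeding groups. Hp averaged 3.06 CPM in DSF, where a single library held 6.11, and at most 0.385 in any other group. The part of these markers in the Cyp1a2 and Cyp2e1 differences was not tested. Cyp2b19, an epoxygenase of skin keratinocytes, had no count in any BSF_C, BSF, LSF or DSF library, against 3.304, 4.37 and 5.53 CPM in con. It was at least 36.1-fold lower in BSF_C, 23.8-fold in BSF, 34.3-fold in LSF and 22.2-fold in DSF than in con. Cyp2b19 reached the filter's level in con alone and entered the test through it. Its calls cannot count as separate support for a high con level. All 12 keratinocyte markers were also lower in each feeding group than in con (31.1% of all genes in DSF to 33.2% in BSF_C). The part of these markers in the Cyp2b19 differences was not tested. With DESeq2's Wald test none of these Cyp2b19 differences passed (adjusted p 0.111 in BSF_C, 0.165 in BSF, 0.116 in LSF and 0.176 in DSF). Of the untested members Cyp2a4, Cyp2a5, Cyp2d9, Cyp2d10, Cyp3a44 and Cyp3a59, none had more than 12 counts in a library, and Cyp2a4, Cyp2a5 and Cyp2d10 each share over 20% of their windows with relatives.

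The 15 fatty acid hydroxylases held the most abundant P450 genes, and their members moved in both directions. Of 10 tested, 2 were higher (8.97% of all genes) and 3 lower (6.91%) in LSF than in DSF. In BSF_C against LSF, 3 were higher (15.6% of all genes) and 4 lower (17.1%), and in BSF against DSF 2 were higher (5.77%) and 1 lower (6.26%). Cyp4f14, which hydroxylates leukotriene B4 and vitamin E (chromosome 17, 32905070 to 32917342), had 561, 557 and 528 CPM in BSF_C, 544 and 541 in BSF, 538, 540.1 and 540.3 in LSF, 507 and 494 in DSF and 160.4, 158 and 156 in con. The feeding groups lay close together and far above con, with a log2 fold change of 1.80 ± 0.05 (SE) in BSF_C, 1.78 ± 0.06 in BSF, 1.77 ± 0.05 in LSF and 1.66 ± 0.06 in DSF against con. In LSF against DSF it was 0.11 ± 0.05 (SE; adjusted p = 0.182). Cyp4v3, the mouse form of a fatty acid hydroxylase that is mutated in a human crystalline eye disease (chromosome 8, 45304944 to 45333216), had 301, 300.2 and 296 CPM in BSF_C, 302 and 302 in BSF, 429.6, 444 and 437 in LSF, 220.1 and 224 in DSF and 43.1, 40.8 and 43.3 in con. LSF lay above BSF_C and BSF, DSF below these, and con far below, without overlap between these levels. Its log2 fold change came to 0.97 ± 0.06 (SE; adjusted p = 6.34e-20) in LSF against DSF, -0.54 ± 0.05 (SE; adjusted p = 3.74e-13) in BSF_C against LSF and 0.44 ± 0.06 (SE; adjusted p = 4.22e-07) in BSF against DSF. A gene model on the same strand, Gm45753, overlaps it and shares 6.4% of its windows.

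Cyp4b1, which hydroxylates short fatty acids and activates some plant toxins (chromosome 4, 115624725 to 115647723), had 26.4, 24.4 and 19.96 CPM in BSF_C, 21.9 and 22.6 in BSF, 37.1, 36.9 and 38.7 in LSF, 17.2 and 13.5 in DSF and 2.48, 1.04 and 2.99 in con. LSF did not overlap any other group, and DSF lay below BSF_C and BSF. Its log2 fold change was 1.29 ± 0.14 (SE; adjusted p = 4.65e-11) in LSF against DSF and -0.67 ± 0.11 (SE; adjusted p = 2.31e-06) in BSF_C against LSF. Cyp4f16 and Cyp4f40 ran the other way. Cyp4f16 (chromosome 17, 32536558 to 32551798) had 106, 107 and 113 CPM in BSF_C, 104 and 112 in BSF, 78.2, 78.6 and 83.05 in LSF, 122 and 126 in DSF and 47.7, 43.2 and 52.5 in con. DSF was highest, LSF lowest of the feeding groups, and con lower still, with a log2 change of -0.63 ± 0.07 (SE; adjusted p = 4.71e-10) in LSF against DSF and 0.44 ± 0.07 (SE; adjusted p = 2.57e-07) in BSF_C against LSF. Of its windows, 10.1% are shared, mostly with Cyp4f37. Cyp4f40 had 95.6, 95.3 and 104 CPM in BSF_C, 93.8 and 105 in BSF, 80.99, 81.7 and 84.9 in LSF, 97.7 and 104 in DSF and 85.7, 93.8 and 92.6 in con. It was the abundant member whose con level lay within the range of the other groups, and its LSF libraries lay below all 10 others. The log2 fold change was 0.25 ± 0.07 (SE; adjusted p = 0.00221) in BSF_C against LSF and -0.29 ± 0.07 (SE; adjusted p = 0.00277) in LSF against DSF. Without DSF library S3 the adjusted p in LSF against DSF was 0.0986.

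Cyp2u1, which in humans hydroxylates long-chain fatty acids, had 14.1, 14.1 and 11.02 CPM in BSF_C, 14.7 and 12.2 in BSF, 8.21, 8.99 and 8.77 in LSF, 12.9 and 12.7 in DSF and 14.7, 8.73 and 17.97 in con. LSF was lowest but overlapped con, with a log2 change of -0.66 ± 0.18 (SE; adjusted p = 0.00132) against con and 0.59 ± 0.17 (SE; adjusted p = 0.00475) in BSF_C against LSF. In LSF against DSF it was -0.56 ± 0.19 (SE; adjusted p = 0.0328), and leaving out any single LSF or DSF library ended that call (adjusted p 0.0613 to 0.173). Among members named after their values were seen, Cyp4f13 had 31.5 CPM in BSF_C, 30.8 in BSF, 34.5 in LSF, 31.1 in DSF and 17.3 in con, and passed the test against con in all 4 groups. Cyp4a32, 28.0% of whose windows are shared, had 0.737, 0.234 and 1.102 CPM in BSF_C, 0.538 and 0.223 in BSF, 1.33, 2.18 and 2.92 in LSF, 1.17 and 1.85 in DSF and 1.24, 0.624 and 0.2303 in con. It passed in BSF_C against LSF (-1.61 ± 0.46 SE, adjusted p = 0.0053) and BSF against DSF (-1.99 ± 0.69 SE, adjusted p = 0.0496), and in the second any library left out ended the call (adjusted p 0.0843 to 0.37), in the first BSF_C library 2 (0.0593) or LSF library 3 (0.0541) did. It was also higher in LSF than in con (1.55 ± 0.54 SE, adjusted p = 0.00863), a call that was lost without LSF library 3 (adjusted p = 0.0552) or con library 3 (0.0607). Cyp4a32 reached the filter's level in LSF alone and entered the test through it. Its calls against LSF cannot count as separate support for a high LSF level. Cyp4f15 passed in BSF_C against LSF (-1.01 ± 0.40 SE, adjusted p = 0.045), where the libraries overlapped and leaving out BSF_C library 1 or 3 or LSF library 1 or 2 ended the call (adjusted p 0.0863 to 0.282). Cyp4f17 passed in no comparison. Cyp4a12a, Cyp4a12b, Cyp4f18, Cyp4f39 and Cyp4x1 were not tested and had at most 8 counts in any library.

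Among the members with little-known substrates, Cyp2s1 and Cyp20a1 were lower in every feeding group than in con. Cyp2s1, an enzyme of epithelial barriers (chromosome 7, 25802475 to 25816913), had 88.9, 90.1 and 77.6 CPM in BSF_C, 84.5 and 81.5 in BSF, 124, 125 and 119.6 in LSF, 112 and 106 in DSF and 192, 180.3 and 206 in con. It overlaps a gene on the other strand, as Cyp2u1 and Cyp2t4 do. No con library overlapped the others, LSF and DSF lay below con, and BSF_C and BSF were lowest. The log2 fold change against con was -1.17 ± 0.06 (SE) in BSF_C, -1.22 ± 0.07 in BSF, -0.65 ± 0.06 in LSF and -0.82 ± 0.07 in DSF. It was -0.39 ± 0.08 (SE; adjusted p = 0.000363) in BSF against DSF and -0.52 ± 0.06 (SE; adjusted p = 3.34e-09) in BSF_C against LSF. Cyp20a1, for which no firm substrate is known, had 6.76, 7.37 and 7.47 CPM in BSF_C, 6.73 and 6.35 in BSF, 5.92, 5.27 and 6.78 in LSF, 8.07 and 8.05 in DSF and 17.96, 13.5 and 12.2 in con. Its con libraries were above all others, with a log2 fold change of -1.02 in BSF_C, -1.16 in BSF, -1.29 in LSF and -0.86 in DSF (adjusted p at most 0.00013), and no difference passed between the feeding groups. Cyp2t4 passed in no comparison and Cyp2w1 was not tested.

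**Figure D3:**
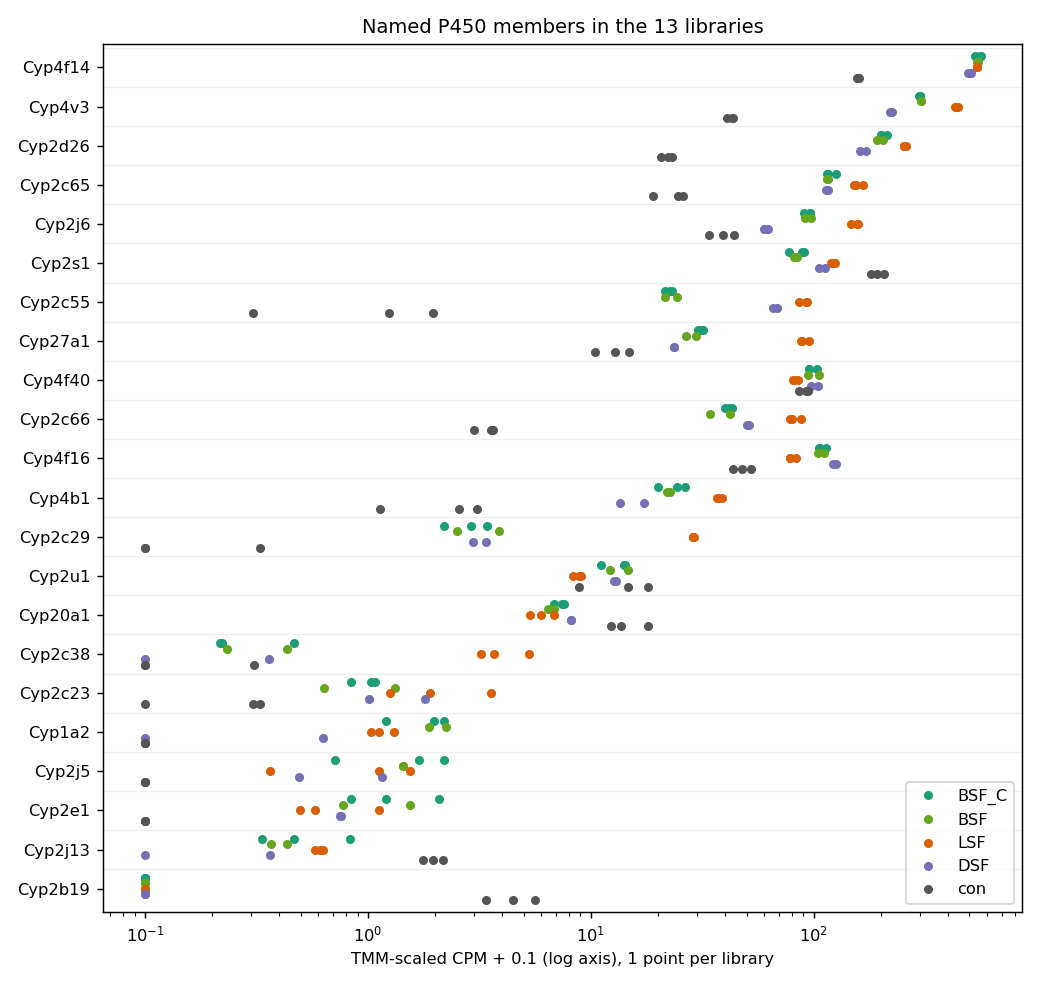
The 22 members taken by the naming rule, 1 point per library (horizontal axis, TMM-scaled CPM plus 0.1 on a log scale; groups run from BSF_C at the top of each row to con at the bottom). LSF points lie apart at the right in Cyp2c29, Cyp2c38, Cyp27a1 and Cyp2j6, and con points lie at the right in Cyp2s1, Cyp20a1, Cyp2j13 and Cyp2b19.

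Vitamin D activation, steroid hormone synthesis and retinoic acid breakdown were represented by low counts. Cyp2r1, the liver enzyme that begins vitamin D activation, had group means of 1.12 CPM in BSF_C, 1.19 in BSF, 0.7697 in LSF, 0.524 in DSF and 0.3605 in con. It passed the test in BSF_C (1.61 ± 0.67 SE, adjusted p = 0.0284) and BSF (1.66 ± 0.71 SE, adjusted p = 0.0356) against con, but leaving out BSF_C library 2 (adjusted p = 0.0662) or 3 (0.0971) or con library 2 (0.104) ended the first call, and BSF library 1 (0.214) or con library 1 (0.0557) or 2 (0.112) the second. Cyp27b1, which completes vitamin D activation in kidney, Cyp11a1 and Cyp17a1 of steroid synthesis, and Cyp26b1, which clears retinoic acid, were not tested. Cyp11a1 and Cyp26b1 had a count in every library, with 2 to 10 and 3 to 13 counts, while Cyp27b1 and Cyp17a1 had at most 3 and 6.

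BSF against DSF and BSF_C against LSF share no library. Of the 4 members lower in BSF than in DSF, all 4 (Cyp2c55, Cyp2c66, Cyp2s1 and Cyp4a32) were also lower in BSF_C than in LSF, where 18 were, so the overlap is all of the shorter list and 22.2% of the longer. Of all genes tested, 895 were lower in BSF than in DSF, and 569 of these were also lower in BSF_C than in LSF (3.98% of all genes tested). Most genes lower in the first comparison were thus lower in the second too. Cyp4a32 reached the filter's level in LSF alone and entered the test through it. The Cyp4a32 call in BSF against DSF was lost with any of its libraries left out, and that of Cyp2c66 without BSF library 1 or DSF library S3. No member was higher in both, as 3.25% of all genes were. Cyp2d26, Cyp2j6, Cyp4b1 and Cyp4v3 were higher in BSF than in DSF but lower in BSF_C than in LSF, a pattern that 0.762% of all genes tested had. Cyp2j6 had a log2 fold change of 0.62 in BSF against DSF and -0.71 in BSF_C against LSF, and Cyp4v3 had 0.44 in BSF against DSF and -0.54 in BSF_C against LSF. The call of Cyp2d26 in BSF against DSF was lost without BSF library 2 or DSF library S3, and that of Cyp4b1, at 0.54, without BSF library 1 (0.0594), BSF library 2 (0.114) or DSF library S3 (0.26). Of the 8 villus markers, 3 were higher and 1 lower in BSF than in DSF, and none higher and 6 lower in BSF_C than in LSF. In LSF against DSF, 7 of the 8 were higher and none lower. The 10 leukocyte markers, of cells that the sort was set to remove, summed to 176 to 190 CPM in BSF_C, 163 to 172 in BSF, 260 to 263 in LSF, 260 to 265 in DSF and 18.7 to 21.2 in con. Of these, 6 were lower and none higher both in BSF than in DSF and in BSF_C than in LSF. Itgam averaged 12.1 CPM in con, 7.23 in BSF_C, 7.39 in BSF, 5.81 in LSF and 7.92 in DSF. Cd79a also averaged more in con (1.12 CPM) than in any feeding group, and more in BSF (0.671) than in DSF (0.327). Every other leukocyte marker averaged less in con than in each feeding group. The 8 fibroblast markers had 6 lower in BSF than in DSF and 5 lower in BSF_C than in LSF, and of 7 tested heart muscle markers 5 were lower in each. Ldb3, at 105 and 99.8 CPM, and Pdgfra, at 2.93 and 2.48, averaged more in BSF_C than in LSF. Myl2 averaged more in BSF (0.961 CPM) than in DSF (0.72). Of all genes tested, 5.77% were higher and 6.26% lower in BSF against DSF, and 15.6% and 17.1% in BSF_C against LSF. In LSF against DSF the shares were 8.97% and 6.91%. The part of these lists in the results was not tested.

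**Figure D4:**
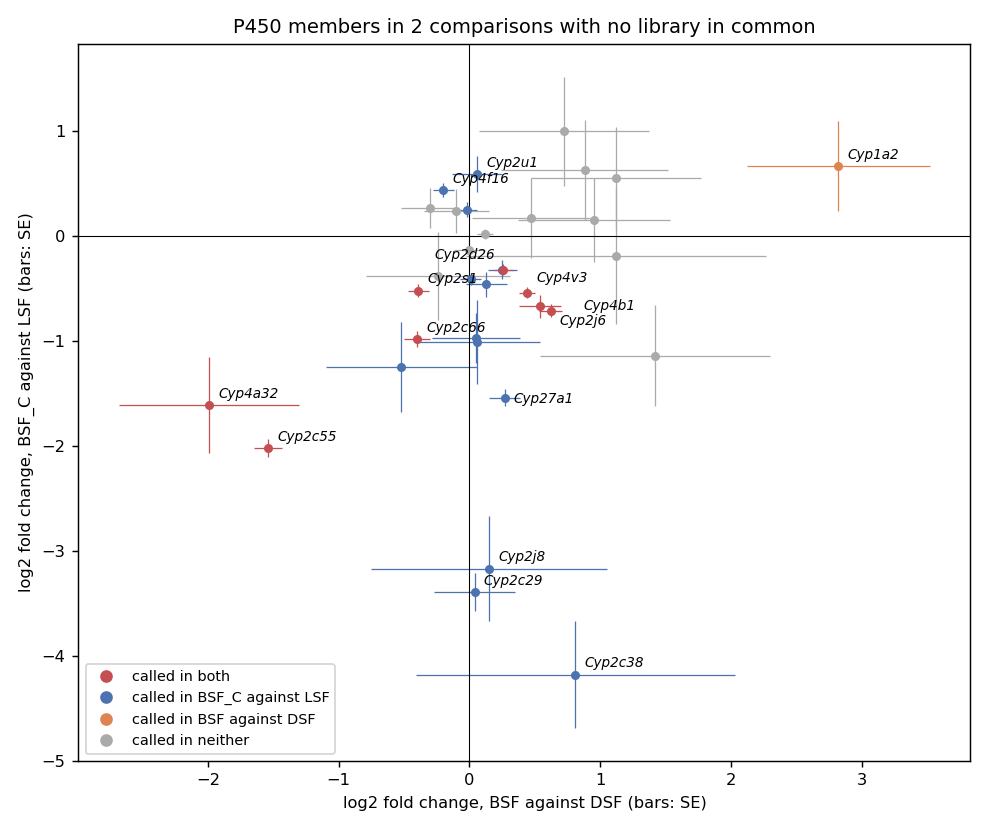
Log2 fold change in BSF against DSF (horizontal axis) and in BSF_C against LSF (vertical axis) of the 34 tested members with a count in a feeding group, with bars for the SE. Cyp2c55, at -1.54 and -2.02, lies low in both, Cyp2c29 and Cyp2c38 lie low on the vertical axis alone, and Cyp2j6 and Cyp4v3 lie to the right and below.

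BSF_C and BSF did not differ in any member past the threshold. No member passed in BSF_C against BSF (0.105% of all genes were higher and 0.028% lower), none had an unadjusted p under 0.05 with edgeR, and the same counts of 0 were found with DESeq2's Wald test and with limma-voom. Without the filter on low counts, edgeR gave an unadjusted p under 0.05 for 1 of 54, Cyp3a44. Fold changes of the 35 ran from -0.59 to 0.87 on the log2 scale, and those of the 16 members with at least 10 CPM from -0.04 to 0.13. Cyp4v3, for example, had 299 ± 2.84 CPM in BSF_C and 302 ± 0.218 in BSF (SD, n = 3 and 2), and Cyp2j6 94.3 ± 3.37 CPM in BSF_C and 94.2 ± 4.43 in BSF.

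Against con, more members were higher than lower in every feeding group. In BSF_C, 19 were higher (39.8% of all genes were) and 4 lower (33.2% of all genes). In BSF the counts were 19 (38.3% of all genes) and 4 (31.9%), in LSF 23 (38.9%) and 6 (33.0%), and in DSF 17 (36.6%) and 4 (31.1%). These comparisons share the con libraries. The median log2 fold change of the members was 1.30 in BSF_C, 1.27 in BSF, 1.97 in LSF and 0.84 in DSF, against 0.12 in BSF_C, 0.11 in BSF, 0.1 in LSF and 0.1 in DSF for all genes. Scaling by library totals alone put the median of all genes at 0.284 in BSF_C, 0.287 in BSF, 0.199 in LSF and 0.259 in DSF, and Cyp4f40 then passed against con in BSF_C, BSF and DSF. All 3 con libraries lay below all others in 18 members (31.0% of all genes) and above all others in 4 (27.1% of all genes). These 4 include Cyp2b19 and Cyp2j13, which are also among the members lower than con in every feeding group. Both reached the filter's level in con alone and entered the test through it. All 8 villus markers were higher in each feeding group than in con, and their part in the higher P450 levels was not tested. The largest rises per group, beside members with at most 3 counts in con, were those of Cyp2c55, with a log2 fold change of 4.36 ± 0.24 (SE) in BSF_C, 4.40 ± 0.25 in BSF, 6.38 ± 0.18 in LSF and 5.94 ± 0.20 in DSF. Without con library 2, which held most of its con counts, these were 5.06 in BSF_C, 5.10 in BSF, 7.08 in LSF and 6.64 in DSF. Cyp2c66 had a log2 fold change of 3.65 in BSF_C, 3.54 in BSF, 4.63 in LSF and 3.94 in DSF, Cyp4b1 3.45 in BSF_C, 3.37 in BSF, 4.12 in LSF and 2.83 in DSF, and Cyp2d26 3.22 in BSF_C, 3.18 in BSF, 3.54 in LSF and 2.92 in DSF. Cyp2c29 held 1 count in con, and its count ratio was 38.3 (exact 95% counting interval 6.64 to 1530) in BSF_C, 44.4 (7.62 to 1790) in BSF, 403 (72.1 to 16000) in LSF and 43.1 (7.36 to 1740) in DSF.

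Genes that work with P450 enzymes were read from lists of partners. Their counts stand beside the shares of all genes tested: 8.97% higher and 6.91% lower in LSF against DSF, 15.6% and 17.1% in BSF_C against LSF, and 5.77% and 6.26% in BSF against DSF. Por, the reductase that hands electrons to P450 enzymes of the endoplasmic reticulum, had 217, 209.6 and 219.9 CPM in BSF_C, 218 and 209 in BSF, 306, 290.4 and 303 in LSF, 186 and 185 in DSF and 93.7, 90.03 and 102 in con. LSF was highest, DSF lay below BSF_C and BSF, and con was lowest, with a log2 change of 0.69 ± 0.06 (SE; adjusted p = 2.01e-13) in LSF against DSF and -0.48 ± 0.05 (SE; adjusted p = 2.37e-10) in BSF_C against LSF. A list of 10 genes held electron donors together with Pgrmc1 and Pgrmc2, whose proteins bind P450 enzymes. Of these 10, 4 were higher and 1 lower in LSF than in DSF, and 1 higher and 6 lower in BSF_C than in LSF. Pgrmc1 was among the 4 and among the 6. Ephx2, the soluble hydrolase that opens the epoxides made by Cyp2c and Cyp2j enzymes, averaged 114 ± 6.22 CPM in BSF_C, 115 ± 8.701 in BSF, 136 ± 2.63 in LSF, 78.4 ± 7.64 in DSF and 16.3 ± 3.36 in con (SD). It was higher in LSF than in DSF (0.79 ± 0.08 SE, adjusted p = 6.29e-12) and in BSF than in DSF (0.56 ± 0.09). Of 3 epoxide hydrolases tested, 2 were higher and none lower in LSF than in DSF, and 1 was higher and none lower in BSF than in DSF. In BSF_C against LSF, none was higher and 2 were lower. Ephx1 had a log2 change of -0.43 in BSF against DSF, which did not pass. Ephx3 went the other way against con, averaging 2.93 CPM in con and at most 0.164 in a feeding group. Of 12 genes of heme synthesis and breakdown, 1 was higher and 3 lower in LSF than in DSF and none higher and 3 lower in BSF than in DSF; Alas1, the first enzyme of heme synthesis, averaged 34.5 CPM in BSF_C, 34.7 in BSF, 39.4 in LSF, 52.1 in DSF and 27.2 in con. Of 15 receptors and factors known to control P450 genes, 7 were higher and 1 lower in LSF than in DSF, 1 higher and 10 lower in BSF_C than in LSF, and 2 higher and none lower in BSF than in DSF. Tef, a clock-output factor that binds D-boxes, had 69.8, 69.3 and 69.05 CPM in BSF_C, 71.7 and 65.2 in BSF, 90.7, 84.4 and 79.7 in LSF, 36.4 and 36.5 in DSF and 37.99, 30.8 and 36.2 in con. DSF and con overlapped at the low end and LSF was highest, with a log2 change of 1.22 ± 0.09 (SE; adjusted p = 2.8e-16) in LSF against DSF and 0.90 ± 0.10 (SE; adjusted p = 3.91e-10) in BSF against DSF. Hnf4a, a nuclear receptor of enterocyte identity, averaged 1590 ± 52.1 CPM in BSF_C, 1582 ± 20.1 in BSF, 1346 ± 25.97 in LSF, 1510 ± 32.4 in DSF and 3393 ± 271 in con (SD), lower in every feeding group than in con.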

How the data were processed

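Polyadenylated RNA of sorted jejunal epithelial cells was sequenced, per the labels' protocols. The authors deposited whole-number counts per gene symbol for 21868 symbols in 13 libraries, with no normalization. STAR 2.7.2e, cutadapt 2.9, FastQC 0.11.8 and DESeq2 1.32.0, and the builds GRCm38 and mm10, are named in the submitters' processing notes without settings. Annotation, strand and the handling of reads with several matches: not given in the sources used here. Counts of genes with near-identical copies, or with overlapping or antisense neighbours, are therefore uncertain. The share of 75-base windows of a member's transcripts that also occur in another gene (GENCODE M21, GRCm38) is given where it was high.

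Members and gene lists were chosen with earlier results of these data known. Columns and groups followed the labels; for DSF the labels have numbers 1 and 2 while the table has S2 and S3, and no number was assigned. edgeR 4.0.16 (R 4.3.3) kept 14300 genes with filterByExpr by group (99.91% of counts), scaled libraries by TMM and fitted a group term to all 13 libraries together (residual degrees of freedom 8, common biological coefficient of variation 4.9%). The quasi-likelihood test was two-sided, adjusted after Benjamini and Hochberg over these genes, with a threshold of 0.05. The SE printed was obtained by dividing the absolute log2 fold change by the root of the F statistic; this differs from a coefficient's standard error and can be too small at few counts. Where a group had no count, a fold is a lower bound against a floor of 3 counts over that group (0.121 CPM in BSF_C, 0.183 in BSF, 0.127 in LSF, 0.197 in DSF, 0.214 in con), and with 1 to 3 counts the ratio has an exact 95% interval; both cover counting error only. The labels call the libraries of a group biological replicates, without saying whether each came from its own animal; p-values measure the spread between these libraries.

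Named members were the 10 highest per kilobase, the 5 largest called rises and falls against con, and the 8 smallest p of each comparison without con, with at least 1 CPM in the higher group. Replicate numbers showed no pairing of libraries over all genes tested (correlations of same-numbered deviations -0.095 to 0.048). The fit was tested on simulated data. Alternatives were DESeq2's size factors, library totals alone, DESeq2 1.42.0 (Wald test), limma-voom (limma 3.58.1), no filter, only the groups compared, con left out, a replicate block and each library left out.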

Additional observations from a re-analysis of the deposited data

How the results depend on the processing

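No direction of a named member was reversed under any alternative in the comparisons for which it was named. Cyp4f14, Cyp4f40 and Cyp2c65, named for their level alone, were not checked for this. Of the counts of members called, all stayed within 1.5 times their value with DESeq2's size factors, library totals alone, DESeq2's Wald test, limma-voom, no filter, only the groups compared and, in the 4 comparisons without con, con left out of the fit. With single libraries left out, BSF against DSF ranged from 3 to 4 members higher and 2 to 3 lower, and LSF against DSF from 13 to 15 higher and 1 to 2 lower. The higher count in BSF against DSF was 3 without BSF library 2 or DSF library S3, the lower count 2 without BSF library 1 or DSF library S3, and the lower count in LSF against DSF 1 without DSF library S3. Leaving out a library of a group of 2 leaves a lone sample that is assumed to vary like the other groups. DESeq2's Wald test called Cyp2b19 in none of the comparisons with con, and gave no adjusted p for Cyp2c38, Cyp2c67 and Cyp2j8 in LSF against DSF. It lost Cyp2u1 there, Cyp4a32 in BSF against DSF, Cyp4f15 and Cyp2c23 in BSF_C against LSF, Cyp2r1 in BSF_C and BSF against con, and Cyp39a1 in LSF against con.

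With the replicate block, 17 members were lower in BSF_C than in LSF, against 18, the call lost being that of Cyp4f15, and no other call among members changed. The 15 pairs of same-numbered libraries had correlations of -0.095 to 0.048 and the 30 pairs of other numbers -0.063 to 0.085. Same-numbered libraries thus did not deviate together more than others. As the correlation runs over all genes, it cannot exclude a shared origin that shifts few of them. No block could be fitted for comparisons with DSF, whose columns carry no number of the labels. Depth limits the members under 1 CPM, for which a group rests on few counts.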
